A study of Homo sapiens with 6 samples.

Results

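The report concerns 4 genes of cell junctions, DSC2, EVPL, CGN and ERBB2IP, which were taken by name from the 770 genes of the nCounter PanCancer Progression Panel. No threshold on their values was used, but they were chosen with earlier results of these data known. The panel is a hybridization assay that counts fluorescent barcodes bound to RNA molecules. It was run on NIH:OVCAR-3, an established cell line of high-grade serous ovarian cancer, plated in six-well plates at low or high cell density and collected after 1 week. All cells were kept in RPMI 1640 with 20% FBS, glucose, HEPES, sodium pyruvate and insulin, with no drug or genetic change named, and 100 ng of RNA was read per sample. There were 3 samples of each density, and a medium density named in the design was not analysed here. The sources do not say whether the 3 samples of a density were separate cultures, and the p-values cover only the spread seen among them, which may be technical.

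The samples held 554857 to 696309 barcode counts, the lowest being high density replicate 3. Between low density replicates 1 and 2 the chi-square of the counts was 1.08 per gene (p = 0.0944, 613 genes), against 1.35 to 1.84 for the other pairs of the same density and 83.6 to 99.9 for pairs of opposite density. Over the 480 genes tested, this chi-square of counts was 1.12 per gene (p = 0.0330). As these libraries, low density replicates 1 and 2, differed by little more than sampling noise, results are also given with their mean counted as 1 sample. Levels below are in normalized counts, that is, barcode counts brought in each sample to a common mean of 30 panel reference genes. The cells carried the epithelial marker EPCAM at 3005 ± 105 normalized counts at low and 3101 ± 54.0 at high density (SD, n = 3 each), and 10 of 12 epithelial markers listed were on the panel and tested. Of these 10, 8 fell at low density and 0 rose, against 27.5% of all tested genes called lower. On scaling to the positive controls 5 fell, and under quantile normalization 8 fell and 1, EPCAM, rose (log2 fold change 0.11). Their summed level was 22257 to 23098 at low and 30125 to 30940 at high density. None of 4 markers of serous ovarian cancer listed was on the panel. Of markers of other cell types, 5 of 9 endothelial, 6 of 6 leukocyte and 9 of 11 fibroblast genes were on the panel, and 2, 1 and 1 of them were bright enough to be tested. Their summed level was 138 to 170 normalized counts at low and 163 to 186 at high density for endothelial genes, 85.5 to 102 and 101 to 122 for leukocyte genes, and 98.1 to 118 and 87.7 to 105 for fibroblast genes. PTPRC, which defines leukocytes, averaged 1.56 at low and 6.71 at high density, below the background limits of 14.4 and 15.9. These limits are the mean plus 2 SD of the negative control probes. The tested genes of the endothelial, leukocyte and fibroblast lists averaged above these limits at both densities. Some untested ones did so too. The leukocyte gene ITGB2 averaged above the limit at both densities (14.99 at low and 16.28 at high density). CD34 (16.16) was above it at low density only, and PECAM1 (18.02) and FAP (19.80) at high density only. The part of the epithelial shift in the changes of the 4 junction genes was not tested.

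Epithelial cells are held together by junctions stacked along their sides. Desmosomes are spots of adhesion in which cadherins of the desmocollin and desmoglein families cross the membrane, and plaque proteins on the inner face, among them the plakins, tie them to keratin filaments. Tight junctions seal the space between cells. Their claudin strands are bound on the inside by plaque proteins of the ZO family and by cingulin, which also binds actin and myosin. Along the basolateral membrane, scaffold proteins of the LAP family, which have leucine-rich repeats and PDZ domains, hold receptors and polarity proteins in place. DSC2 encodes desmocollin-2, EVPL the plakin envoplakin, CGN cingulin, and ERBB2IP, the older symbol of ERBIN, encodes a LAP protein that binds the receptor ERBB2.

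At low density the desmosomal genes DSC2 and EVPL were lower than at high density, while neither CGN nor ERBB2IP passed the test. DSC2 fell by 18.4% and EVPL by 11.6% of the high density mean. The difference for CGN was close to 0. That for ERBB2IP was positive and larger than its SE (0.07 ± 0.04 on the log2 scale), but did not pass the test. Thus 2 of the 4 genes were called, both of them lower and none higher, at an adjusted p under 0.05 in the fit with limma, a linear model of log2(value + 1) that shares the spread across the 480 genes with a mean of at least 20. Of all tested genes 66.2% were called, 38.8% as higher and 27.5% as lower, so being called did not set these genes apart. Higher genes made up 58.5% of the calls, and 75.9% on scaling to the positive controls. In 2 of the 4 genes the values of the densities did not overlap, against 66.0% of tested genes. As RNA came from whole wells, fewer cells expressing a gene and less RNA per cell cannot be told apart.

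**Figure D1:**
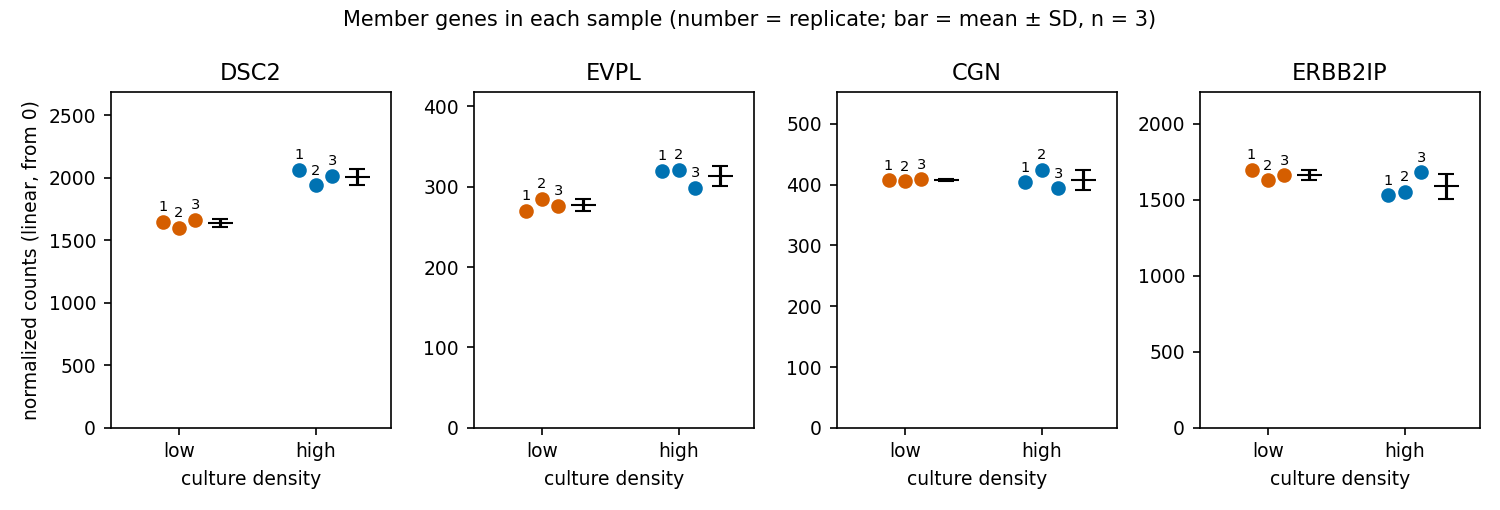
Normalized counts (linear axis from 0) of DSC2, EVPL, CGN and ERBB2IP in each of the 3 low density (orange) and 3 high density (blue) samples, numbered by replicate, with the mean and SD as bars. The densities are separate for DSC2 and EVPL and overlap for CGN and ERBB2IP, where high density replicate 3 of ERBB2IP (1681) lies among the low density samples.

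Desmocollin-2 is a desmosomal cadherin made by most simple epithelia. DSC2 stood at 1647, 1601 and 1665 normalized counts in low density replicates 1 to 3, and at 2065, 1941 and 2015 in the high density ones. Every low density sample lay below every high density sample, and the gap between the groups was wider than the range within either. The means were 1638 ± 33.1 and 2007 ± 62.4 (SD, n = 3 each), and the log2 fold change, low minus high density, was -0.29 ± 0.04 (SE), with a 95% interval of -0.37 to -0.21 and an adjusted p of 2.1e-11. The exact two-sided permutation test gave p = 0.1, the smallest p that 3 against 3 samples allow. In this test no spread is borrowed from other genes.

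DSC2 was read at 1653 to 2073 barcodes per sample. The SD between replicates was 2.02% of the mean at low and 3.11% at high density, close to the 2.39% and 2.32% that counting error alone would give. Among the 480 tested genes, DSC2 was at rank 230 by size of change, with 47.7% of genes changing by more. The fall passed the test in all 18 alternatives run, with values from -0.35 to -0.15 on the log2 scale.

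Promoter windows from RefSeq, from 250 bases before to 50 bases after a start site, were used for DSC2 and CGN, the 2 of the 4 genes matched in the table used here, with 3 windows. A window is shown for each, DSC2 as the gene with the firmest fall and CGN as a gene with no detected change. Searched on both strands were CACCTG or CAGGTG, the E-box bound by SNAI and ZEB repressors in epithelial genes, AACCGGTT, bound by grainyhead-like factors, and GGAATG or CATTCC, bound by TEAD factors. The upstream DSC2 window (chr18:31102372-31102671, GRCh38.p14, minus strand) holds CAGGTG, in capitals, with its first base at -156 from the start site. The other DSC2 window (chr18:31101211-31101510) and the CGN window (chr1:151511137-151511436, plus strand) hold none of the motifs. Of 35116 promoter windows, 20.6% hold the E-box, 0.134% AACCGGTT and 14.0% the TEAD motif. The match describes letters only, and binding was not measured.
DSC2: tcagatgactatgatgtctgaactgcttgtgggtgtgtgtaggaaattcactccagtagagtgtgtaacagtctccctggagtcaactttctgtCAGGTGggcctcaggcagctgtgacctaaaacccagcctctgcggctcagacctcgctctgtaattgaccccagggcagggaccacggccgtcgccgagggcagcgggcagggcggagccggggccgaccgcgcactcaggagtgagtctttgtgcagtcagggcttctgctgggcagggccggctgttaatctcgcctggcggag
CGN: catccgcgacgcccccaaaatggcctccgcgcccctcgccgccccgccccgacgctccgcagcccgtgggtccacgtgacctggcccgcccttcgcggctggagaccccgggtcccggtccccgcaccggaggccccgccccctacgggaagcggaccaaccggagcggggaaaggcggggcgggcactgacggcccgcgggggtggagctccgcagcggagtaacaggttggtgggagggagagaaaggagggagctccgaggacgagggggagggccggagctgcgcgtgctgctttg

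Envoplakin is a plakin that pairs with periplakin, the product of PPL, in the desmosomal plaque and in the cornified envelope of keratinocytes. EVPL stood at 270.05, 285 and 276 normalized counts in low density replicates 1 to 3. In the high density replicates it stood at 319.8, 321 and 299. The groups did not overlap, but the highest low density sample and the lowest high density sample were close. The means were 277 ± 7.44 and 313 ± 12.7 (SD, n = 3 each), and the log2 fold change was -0.18 ± 0.08 (SE), with a 95% interval of -0.33 to -0.02, an adjusted p of 0.0356, and an exact permutation p of 0.1.

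This call was not firm. In the limma fit it was lost when low density replicate 1 (adjusted p = 0.120), low density replicate 3 (0.0650), high density replicate 1 (0.0793) or high density replicate 2 (0.0845) was left out, and when low density replicates 1 and 2 were counted as 1 sample (0.0629). It was also lost on scaling to the positive controls (log2 fold change -0.03, adjusted p = 0.775). EVPL was read at 245 to 321 barcodes per sample, for which counting error alone would give SDs of 5.80% and 5.86% of the mean, above the 2.69% and 4.04% seen between replicates. By size of change 64.4% of tested genes ranked above it.

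Of the 16 desmosome genes listed, the panel held 3, DSC2, EVPL and PPL. All 3 fell, against 27.5% of all tested genes called lower. The median log2 fold change of the 3 was -0.29, against 0.04 over all tested genes. DSC2 and EVPL are themselves genes of this report, and the median is the value of DSC2. The list thus adds only PPL to what is given above. Scaling to the positive controls left 2 lower and EVPL not past the threshold. PPL stood at 1751, 1732 and 1688 normalized counts in the low density samples, against 2559, 2868 and 2886 in the high density ones. All 3 low density samples were well below the high density ones. The means were 1724 ± 32.5 and 2771 ± 184 (SD, n = 3 each), and PPL changed by -0.68 ± 0.04 on the log2 scale (SE, adjusted p = 1.3e-49). This p comes from the limma fit with shared spread, and under quantile normalization it was 1.5e-05.

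**Figure D2:**
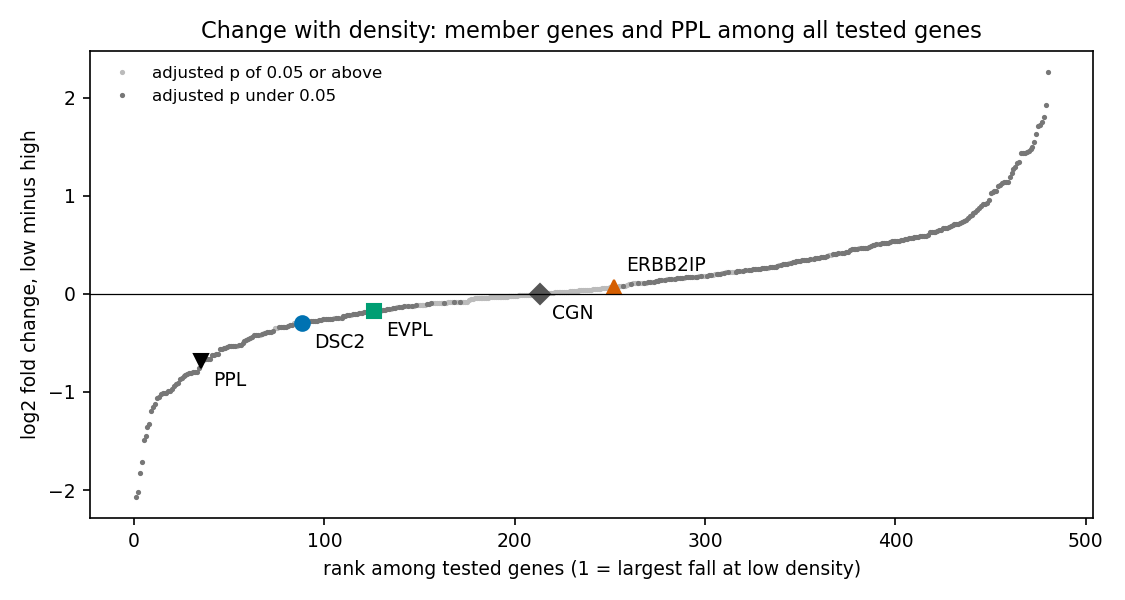
Log2 fold change, low minus high density (vertical axis), of the 480 tested genes in order of their change (horizontal axis, rank), with dark points for genes past an adjusted p of 0.05. DSC2 (-0.29) and EVPL (-0.18) lie on the falling side above PPL (-0.68), and CGN and ERBB2IP (0.07) lie near 0.

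Cingulin is a plaque protein of the tight junction. CGN stood at 407, 405 and 409 normalized counts in low density replicates 1 to 3, and at 403, 425 and 394 in the high density ones. The low density samples lay within the range of the high density samples. The means were 407 ± 1.60 and 407 ± 15.9 (SD, n = 3 each), with a log2 fold change of -0.00048 ± 0.07 (SE), a 95% interval of -0.13 to 0.13 and an adjusted p of 0.995. The exact permutation p was 1. At this scaling the interval leaves room for a change of up to 0.13 in either direction, so a small change may have been missed. It does not cover the choice of scaling. CGN was at -0.12 under quantile normalization and at 0.15 on scaling to the positive controls, and was called in neither.

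The low density values of CGN were closer together than barcode counting allows on average, at an SD of 0.393% against 4.79% from counting error alone, so this SD does not measure the precision. At high density the SD was 3.91% against 5.14%. CGN was read at 323 to 454 barcodes per sample. It was at rank 479 of 480 by size of change, so that 99.6% of tested genes changed by more.

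Some other tight junction genes did change. Of 26 genes listed for the tight junction plaque and membrane, 12 were on the panel and 10 were tested. Of these, 2 rose, 3 fell and 5 were not past the threshold, a smaller share called than the 66.2% of all tested genes. The median log2 fold change of the list was -0.01 against 0.04 over all tested genes. The balance turned with the scaling, to 4 rises and 2 falls on scaling to the positive controls and to 2 rises and 4 falls under median-of-ratios scaling or quantile normalization. The claudin CLDN4 was at 2325 ± 75.6 in low density cells, down from 3371 ± 121 (a change of -0.54 ± 0.04 on the log2 scale, SE), and CLDN3 fell from 6068 ± 245 to 4224 ± 99.7 (-0.52 ± 0.03, SE). The errors of these levels are SDs with n = 3 each, and the direction of both genes was kept under all scalings run.

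ERBIN binds ERBB2 through its PDZ domain, binds the hemidesmosomal integrin subunit encoded by ITGB4, and is known to restrain SMAD signaling. ERBB2IP stood at 1699, 1629 and 1659.8 normalized counts in low density replicates 1 to 3. In the high density replicates it stood at 1531, 1552 and 1681. High density replicates 1 and 2 lay below all low density samples, while high density replicate 3 lay among them. The means were 1663 ± 35.2 and 1588 ± 81.1 (SD, n = 3 each), a difference of 4.69%, and the log2 fold change was 0.07 ± 0.04 (SE), with a 95% interval of -0.02 to 0.15, an adjusted p of 0.155 and an exact permutation p of 0.3.

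That outcome hung on high density replicate 3, the library with the fewest counts. Without it the log2 fold change of ERBB2IP was 0.11 and the adjusted p of the limma fit 0.0313. The gene was read at 1379 to 1824 barcodes per sample, and its SD at high density, 5.11% of the mean, was above the 2.61% of counting error, whereas at low density they were 2.12% and 2.37%. By size of change 84.2% of tested genes ranked above it.

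Of 17 genes listed as basolateral scaffold and ERBB partners, ERBB receptor genes among them, 8 were on the panel and tested. Of these, 5 rose, 0 fell and 3, ERBB2IP among them, did not pass. Of all tested genes 66.2% were called, 38.8% as higher, so the share called was near that of the panel. The median log2 fold change of the list was 0.26 against 0.04 over all tested genes. There were 4 rises and 1 fall under median-of-ratios scaling, and 3 rises and 1 fall under quantile normalization. On scaling to the positive controls there were 6 rises, ERBB2IP among them, and 0 falls. SMAD3, a transducer of TGF-beta signals, was at 517 ± 2.07 in low density cells, up from 289 ± 10.8 (a change of 0.84 ± 0.07 on the log2 scale, SE). The receptor gene EGFR rose from 891 ± 41.4 to 1303 ± 44.6 (0.55 ± 0.05, SE), and DLG1, a basolateral scaffold of the Scribble polarity complex, rose from 1032 ± 67.4 to 1340.1 ± 50.7 (0.38 ± 0.05, SE; SD, n = 3 each for the levels). The partner for which ERBB2IP was named, ERBB2, was at 148 ± 8.34 at low and 151 ± 6.25 at high density (SD, n = 3 each; adjusted p = 0.812) and was singled out after its values were seen.

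The neighbouring junctions were mixed as well. Of 11 adherens junction genes listed, 4 were on the panel and tested, of which CDH1 and CTNND1 fell and CTNNB1 rose. Of all tested genes 66.2% were called. CDH1, the gene of E-cadherin, was at 1722 ± 14.1 at low and 2037 ± 39.2 at high density (SD, n = 3 each). Its change of -0.24 ± 0.04 on the log2 scale (SE) was near that of DSC2. On scaling to the positive controls the falls of CDH1 and CTNND1 no longer passed the test, and CTNND1 turned to 0.03. Of 8 hemidesmosome genes listed, which anchor cells to the basement membrane, 6 were on the panel and tested. Of them 5 rose and 0 fell, against 38.8% of all tested genes called higher and 27.5% lower. Among those that rose were LAMA3 with a log2 fold change of 0.83 ± 0.06 and ITGA6 with 0.32 ± 0.07 (SE). Under quantile normalization only 2 of the 6 rose. The lists share genes. ITGB4 is counted among the rises of both the hemidesmosome and the basolateral list. CDH1 and the claudins that fell are also counted among the epithelial markers.

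**Figure D3:**
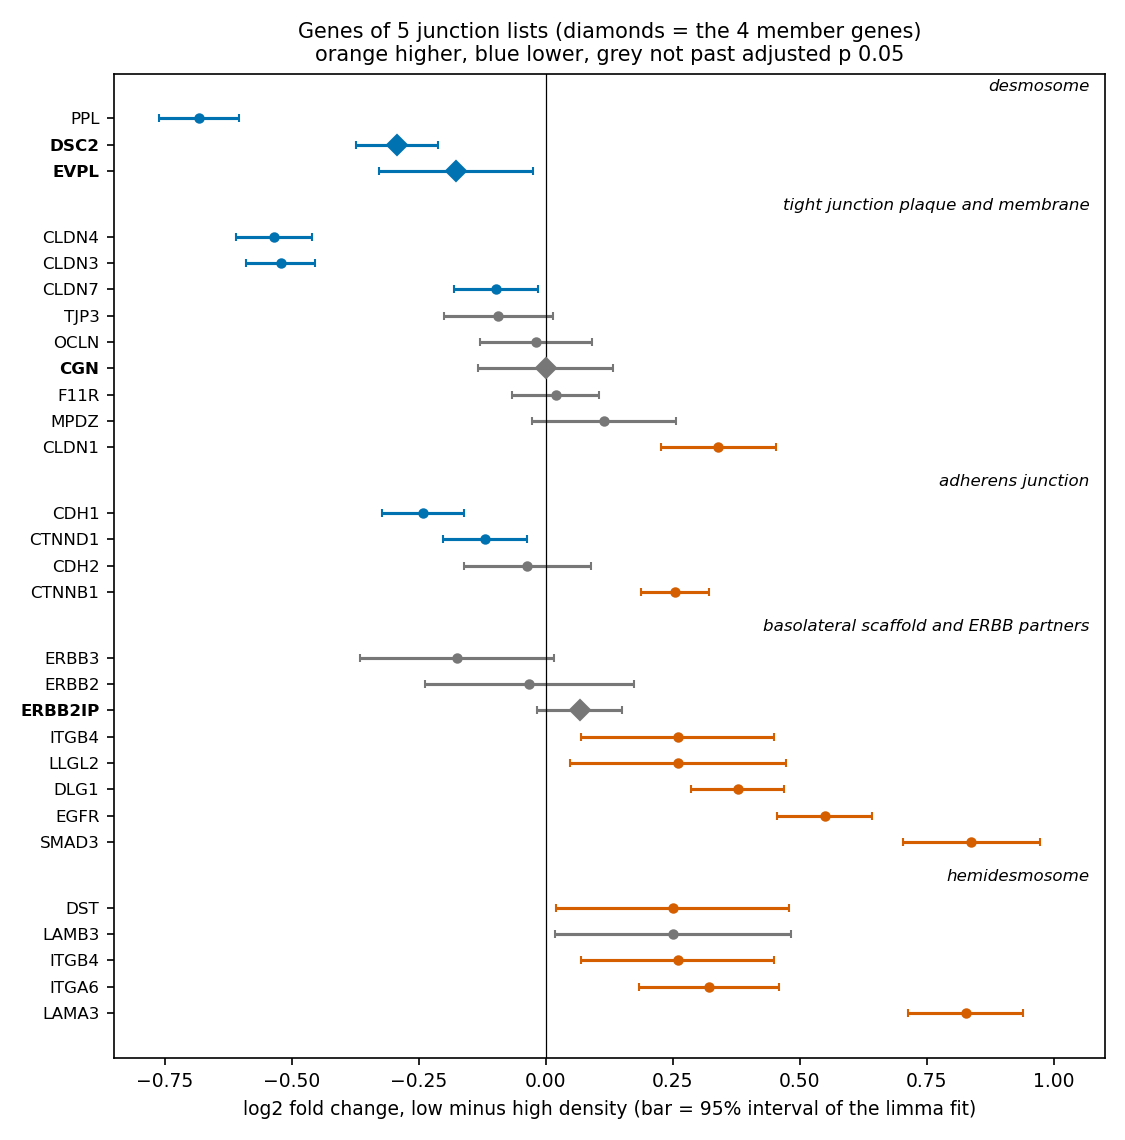
Log2 fold change, low minus high density, with the 95% interval of the limma fit, for tested genes of 5 junction lists (2 of these genes are not shown), where diamonds mark DSC2, EVPL, CGN and ERBB2IP. The 3 desmosome genes lie below 0, the tight and adherens junction genes lie on both sides, and 4 of the 5 hemidesmosome genes shown are called higher. Of all tested genes 38.8% are called higher.

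A ratio of 2 genes within a sample does not depend on the factor used to scale that sample, so the 4 genes were also compared with each other. Levels of different probes are not comparable, and only the change of a ratio with density is read. Of the 6 pairs, 4 had ratios that did not overlap between the densities, against 69.9% of all pairs of tested genes. Lack of overlap thus did not set these pairs apart, and the pairs are not independent, as they share the same 4 genes. DSC2 over ERBB2IP was 0.969, 0.983 and 1.00 in low density replicates 1 to 3 and 1.35, 1.25 and 1.20 in the high density ones. It was lower in every low density sample, with a log2 difference of -0.36 ± 0.05 (SE, exact permutation p = 0.1, adjusted over 6 pairs 0.15). EVPL over CGN was 0.663, 0.703 and 0.676 at low density against 0.793, 0.756 and 0.759 at high density (log2 difference -0.18 ± 0.03, SE), again with no overlap.

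The ratio of DSC2 to CGN differed by -0.29 ± 0.06 and that of EVPL to ERBB2IP by -0.24 ± 0.09 on the log2 scale (SE), both without overlap and with the same exact p. Thus each desmosomal gene was lower at low density relative to CGN and to ERBB2IP in all samples, although the exact permutation test cannot reach a p of 0.05 with 3 samples a group. The ratios of DSC2 to EVPL (-0.12 ± 0.06, SE, exact p = 0.2) and of CGN to ERBB2IP (-0.07 ± 0.07, SE, exact p = 0.4) overlapped between the densities.

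Ratios to 5 partners were chosen after the values were seen, and 4 of them are given here. EVPL over PPL, the plakin pair, was 0.154, 0.164 and 0.164 in the low density samples, against 0.125, 0.112 and 0.103 in the high density ones. The ratio was higher in every low density sample, by 0.51 ± 0.08 on the log2 scale (SE, exact permutation p = 0.1, adjusted over 5 ratios 0.167), so EVPL fell less than PPL. ERBB2IP was lower relative to DLG1 (-0.31 ± 0.04, SE), without overlap between the densities. DSC2 over CDH1 (-0.05 ± 0.03, SE, exact p = 0.3) and CGN over TJP3, the plaque protein ZO-3 (0.09 ± 0.04, SE, exact p = 0.2), overlapped between the densities.

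**Figure D4:**
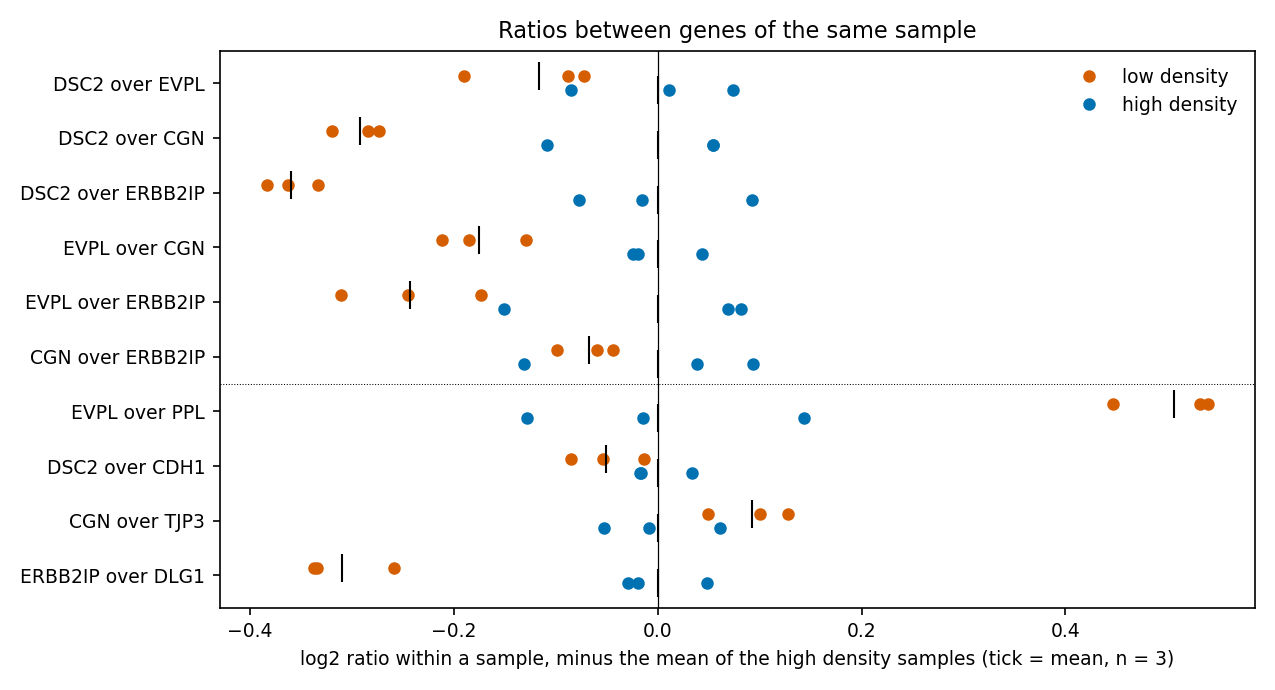
Log2 ratio of 2 genes within each sample, minus the mean of the high density samples (horizontal axis), for the 6 pairs of the 4 genes (above the dotted line) and 4 partner ratios chosen after the values were seen, with ticks at the means of 3 samples. DSC2 and EVPL over CGN or ERBB2IP lie lower in all low density samples (orange), and EVPL over PPL lies higher.

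How far each gene moved depended on what its values were scaled to. The 30 panel reference genes, on which the deposited values rest, themselves changed by -0.40 to 0.63 on the log2 scale, with a median of -0.04. Scaling to the positive control probes moved the median of all tested genes from 0.04 to 0.19. On that scale DSC2 was at -0.15 (adjusted p = 0.0235), EVPL at -0.03 (0.775), CGN at 0.15 (0.0967) and ERBB2IP at 0.21 (8.6e-04, a rise). Relative to the median of all tested genes, DSC2 was at -0.34, EVPL at -0.22, CGN at -0.05 and ERBB2IP at 0.02 under each scaling by a single factor. Such a factor shifts all genes alike, so this sameness is by construction and is no check of the scaling. Under quantile normalization EVPL was at -0.31 (adjusted p = 0.00279) and CGN at -0.12 (0.0799), and ERBB2IP turned to -0.01 (0.806).

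**Figure D5:**
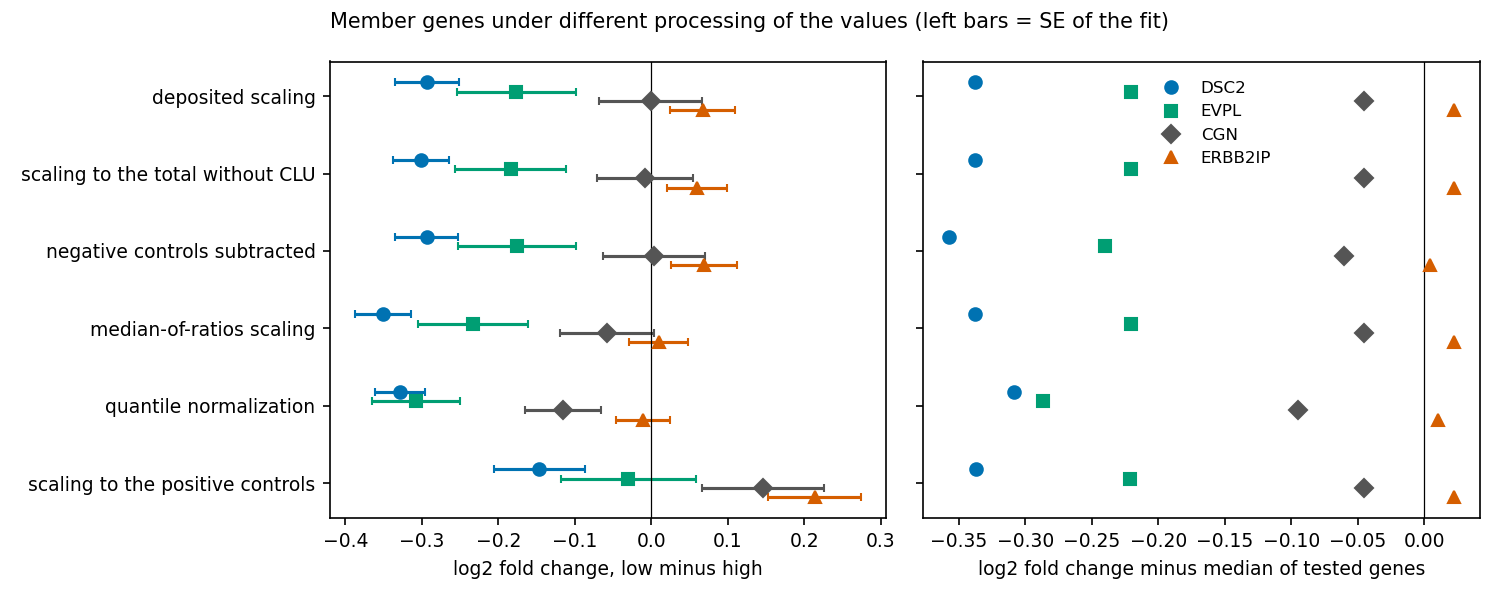
Log2 fold change, low minus high density, of the 4 genes under 6 ways of processing, as fitted (left, bars are SE) and minus the median of all tested genes (right). On the left, DSC2 stays below 0 in every row, EVPL comes close to 0 on scaling to the positive controls (-0.03), and CGN and ERBB2IP change sign or call with the scaling. On the right, rows scaled by a single factor per sample are alike by construction.

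The genes most like each of the 4 were sought among 364 tested genes with a mean of at least 100, by Pearson's r of log2 values over the 6 samples. The points share their libraries and their density groups, so r is a description. DSC2 was nearest to PDK1 (r = 0.994), a kinase gene of the hypoxia response, and to the receptor gene FGFR1 (0.993), and 81 genes had an r over 0.9 with it. EVPL was nearest to PPFIBP2 (0.981) and CHI3L1 (0.950), with 31 such genes. For ERBB2IP these were APC (0.961), a scaffold of the beta-catenin destruction complex, and the acetyltransferase gene EP300 (0.957), with 6 genes over 0.9. CGN had a single gene over 0.9, PDGFA (0.903), followed by PXDN (0.882).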

How the data were processed

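RNA of 6 NIH:OVCAR-3 samples, 3 of low and 3 of high density by their labels, was read with the nCounter panel (740 genes, 30 reference genes, 8 negative and 6 positive controls). The values deposited by the authors were a signal, in which the barcode counts of each sample had been multiplied by a factor that gave the 30 reference genes the same geometric mean, as inferred from the values. Control probes were left as unscaled counts, with no subtraction of background. The software used for this was not given in the sources used here. Values under 100 were whole multiples of the step of their sample within 0.1 count, which gave the counts. Intervals from counts cover counting error only.

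The genes with a mean of at least 20, leaving out reference genes (480 of 740), were fitted as log2(value + 1) with limma 3.58.1 in R 4.3.3 (density only, mean trend, two-sided, threshold 0.05 after Benjamini-Hochberg adjustment over 480 genes). Fold changes are on that scale and understate those of low genes. The fit borrows the spread of all genes. The scripts were checked on simulated data. Single values and ratios were compared by exact two-sided permutation tests. The background limit was the negative control mean plus 2 SD. The members and lists were chosen with earlier results of these data known. Named were the 4 members, the tested desmosome genes, up to 3 genes per other list with the largest change past the threshold, and the 2 genes most like each member. Of the genes this rule picks, 2 are not reported here. EPCAM, PTPRC, ITGB2, CD34, PECAM1, FAP, TJP3, ITGB4 and ERBB2 were named besides. Sequences and names were from RefSeq (GRCh38.p14), where 3 symbols were current and 1 was older. Alternatives were other filters, pseudocounts and scalings, the methods' t-test, a fit without the mean trend, a replicate block and leaving out each sample.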

Additional observations from a re-analysis of the deposited data

How the results depend on the processing

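DSC2 kept its fall and its call in all 18 alternatives, with -0.32 to -0.27 on leaving out 1 sample each, and the count of genes called stayed within 1.5 times the main 318 (293 to 316 on leaving out 1 sample). The share of higher among called genes was 58.5%, against 75.9% on scaling to the positive controls, 49.5% with quantile normalization and 51.1% with median-of-ratios scaling. EVPL kept its direction in all alternatives but lost its call in 6, namely on scaling to the positive controls (-0.030), with low density replicates 1 and 2 averaged (-0.18, an alternative chosen after seeing the data) and without 4 of the 6 samples (range without 1 sample -0.21 to -0.16). CGN, which was never called, changed sign on scaling to the positive controls (0.15), on subtraction of the negative controls (0.0036), with low density replicates 1 and 2 averaged (0.00093) and when either sample numbered 2 was left out (range -0.025 to 0.030). ERBB2IP was called on scaling to the positive controls (0.21) and without high density replicate 3 (range 0.042 to 0.109), and turned to -0.010 under quantile normalization. The cause was not tested. The 11 ratios kept their direction in the alternatives run. On leaving out 1 sample the ratios without overlap ranged from -0.35 to -0.27 (DSC2 over CGN), -0.40 to -0.31 (DSC2 over ERBB2IP), -0.20 to -0.15 (EVPL over CGN), -0.32 to -0.20 (EVPL over ERBB2IP), 0.44 to 0.58 (EVPL over PPL) and -0.34 to -0.29 (ERBB2IP over DLG1). Of those with overlap, CGN over ERBB2IP lay at -0.133 to -0.021, DSC2 over CDH1 at -0.069 to -0.034, DSC2 over EVPL at -0.159 to -0.080 and CGN over TJP3 at 0.066 to 0.124. Samples with the same replicate number did not deviate together (r of 0.117, -0.111 and -0.035), so the numbers were not taken as pairs. A replicate block gave 320 called genes, with EVPL at -0.18 (adjusted p = 0.0255), and changed no call of the 4 genes. The count test planned in case the values were raw counts was not run, as they were normalized. Counting error limits EVPL and CGN most, at a SE of 0.07 and 0.06 on the log2 scale from counts alone.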
